A study of Drosophila melanogaster with 15 samples.

Results

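Genes of the Myc and insulin/Tor growth network of the fruit fly Drosophila melanogaster were followed through eye discs that expressed Yap or Yki proteins of different organisms: dm (the fly Myc gene), InR, chico, Akt1, foxo, Tor, S6k, Thor and gig. They were chosen by name, as the rows with these 9 symbols in the gene column of the deposited table of comparisons. All 9 were among the 14671 genes with expression values and among the 9213 genes that passed the filter on low values. The rule used names and no measured value, but the genes were chosen with earlier results of these data known.

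The tissue was the eye imaginal disc, the larval epithelium that forms the adult eye, taken from larvae in the third instar. In every group GMR-Gal4, a driver active in the cells behind the wave of differentiation that crosses the disc, switched on UAS-eGFP, and the green part of the discs was cut out by hand. Each library pooled the tissue of 25 to 30 discs, and RNA of each of the 5 groups was extracted in triplicate, giving 15 libraries. The first group also carried UAS-MonosigaYAP+HumanTBD, the Yap protein of the choanoflagellate Monosiga joined to a human part labelled TBD. TBD stands for TEAD-binding domain, although the design text calls the part a TEAD domain. This group is called Monosiga Yap-TBD here, and its labelled phenotype was differentiation defects with strong ectopic proliferation. The second carried UAS-TrichoplaxYAP S81A, from the placozoan Trichoplax (Trichoplax Yap S81A), with the same labelled phenotype. The third carried UAS-DrosophilaYKI S168A (Yki S168A), with differentiation defects and a middle degree of ectopic proliferation. The fourth carried UAS-MonosigaYAP without the added domain (Monosiga Yap), with differentiation defects alone. The eGFP control had no further construct and normal eyes. The labels do not say whether the 3 libraries of a group came from separate crosses, so p-values measure the spread between these libraries, which may be technical. Relative to control discs, foxo rose with Monosiga Yap-TBD, Trichoplax Yap S81A and Yki S168A, InR rose with Trichoplax Yap S81A and Yki S168A, and dm and S6k rose with Monosiga Yap-TBD. chico, Akt1, Tor, Thor and gig did not pass the test with any construct.

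Insulin-like peptides bind the insulin receptor InR, whose signal passes through the adaptor Chico and lipid kinases to the kinase Akt1. Akt1 restrains the transcription factor Foxo and the brake on Tor that the gig product (Tsc2) forms with Tsc1; Tor then drives growth through S6k and by relieving translation from the repressor Thor. Myc raises ribosome production, and foxo is known in flies to increase transcription of InR and Thor when insulin signalling is low. Yki, with the DNA-binding partner Scalloped, is the effector of the Hippo pathway and is known to promote growth and proliferation in imaginal discs.

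Levels are given in FPKM, fragments per kilobase of transcript scaled to the size of the library, as the authors deposited them. The estimated depth was 12.05 M to 20.6 M fragments per library, and the lowest value of any of the 9 genes, 11.3 FPKM, corresponded to about 273 fragments in a transcript of 2000 bases at the lowest depth. Within groups, libraries correlated at 0.931 to 0.965. The yki gene averaged 603 ± 169 FPKM in Yki S168A discs and 85.1 ± 4.57 FPKM in control discs (SD, n = 3 each). Trichoplax Yap S81A replicate 1 stood apart by larval fat body genes: the 8 genes of that marker list summed to 4821 FPKM in it, against 6.64 and 62.0 FPKM in the other Trichoplax Yap S81A libraries and 24.1 to 30.9 FPKM in control libraries. Monosiga Yap replicate 2 had the highest value of its group in 5 of the 9 genes. The muscle gene Mhc was at most 0.332 FPKM in every library. The 8 genes of the muscle marker list, Mhc among them, summed to 13.6 to 34.7 FPKM over the libraries. Mef2 had the largest mean of that list, 12.7 FPKM over all libraries.

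In the dm3 genome build of the files, dm (FBgn0000472) lies on chromosome X from 3267216 to 3280049. InR (FBgn0013984) lies on 3R from 17398221 to 17445043, Akt1 (FBgn0010379) on 3R from 11924938 to 11930239 and foxo (FBgn0038197) on 3R from 9882674 to 9913698. On 2L, Thor (FBgn0261560) runs from 3478434 to 3479612, chico (FBgn0024248) from 10242512 to 10247064 and Tor (FBgn0021796) from 13004786 to 13013201. S6k (FBgn0015806) lies on 3L from 5792049 to 5804057 and gig (FBgn0005198) on 3L from 20122282 to 20132450. InR and foxo had the longest gene spans of the 9, with 46823 and 31025 bases. S6k overlaps CG42272 on the opposite strand, which had 18.1 to 35.3 FPKM over the libraries; since the labels do not say whether strand was kept, reads of the pair may not be separable. For gig, the overlapping genes of the opposite strand stayed at or below 1.59 FPKM.

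The question of the main comparisons was which of these genes differed from the eGFP control when each construct was expressed. A gene is said to have passed the test, to have risen or to have fallen, where limma gave a Benjamini-Hochberg adjusted p under 0.05 over all 9213 genes, in one model of log2(FPKM + 1) in the 15 libraries. With Monosiga Yap-TBD, 3 of the 9 genes rose (dm, foxo and S6k) and none fell, where 24.6% of all tested genes passed, 12.6% rose and 12% fell. With Trichoplax Yap S81A, 2 of 9 rose (InR and foxo), where 12.2% of all tested genes passed and 6.09% rose. With Yki S168A the 2 that rose were also InR and foxo, where 11.9% of all tested genes passed and 5.42% rose. With Monosiga Yap, 0 of 9 passed the limma test, where 0.326% of all tested genes passed. An unadjusted limma p under 0.05 was given to 0 of the 9, where 4.94% of all tested genes had one. A p under 0.05 in the authors' deposited table was also given to 0 of the 9. In the authors' deposited table, 3, 2, 2 and 0 of the 9 genes had adjusted values under 0.05 for these constructs in the same order. They were InR, foxo and S6k for Monosiga Yap-TBD, and InR and foxo for Trichoplax Yap S81A and Yki S168A. Shares over all genes of the authors' table are not given here, so its counts have no background beside them. The 4 comparisons share the control libraries.

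The median log2 fold change of the 9 genes was 0.27 with Monosiga Yap-TBD, 0.23 with Trichoplax Yap S81A, 0.28 with Yki S168A and -0.01 with Monosiga Yap. Over all tested genes the same medians were 0.01, 0.04, 0.00 and -0.02 in that order. The libraries of construct and control did not overlap in 5 of the 9 genes for Monosiga Yap-TBD, 4 for Trichoplax Yap S81A, 7 for Yki S168A and 0 for Monosiga Yap. Among all tested genes the shares without overlap were 43.3%, 35.4%, 33.2% and 7.3% for the same comparisons. All 9 genes were expressed in every library of every group.

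**Figure D1:**
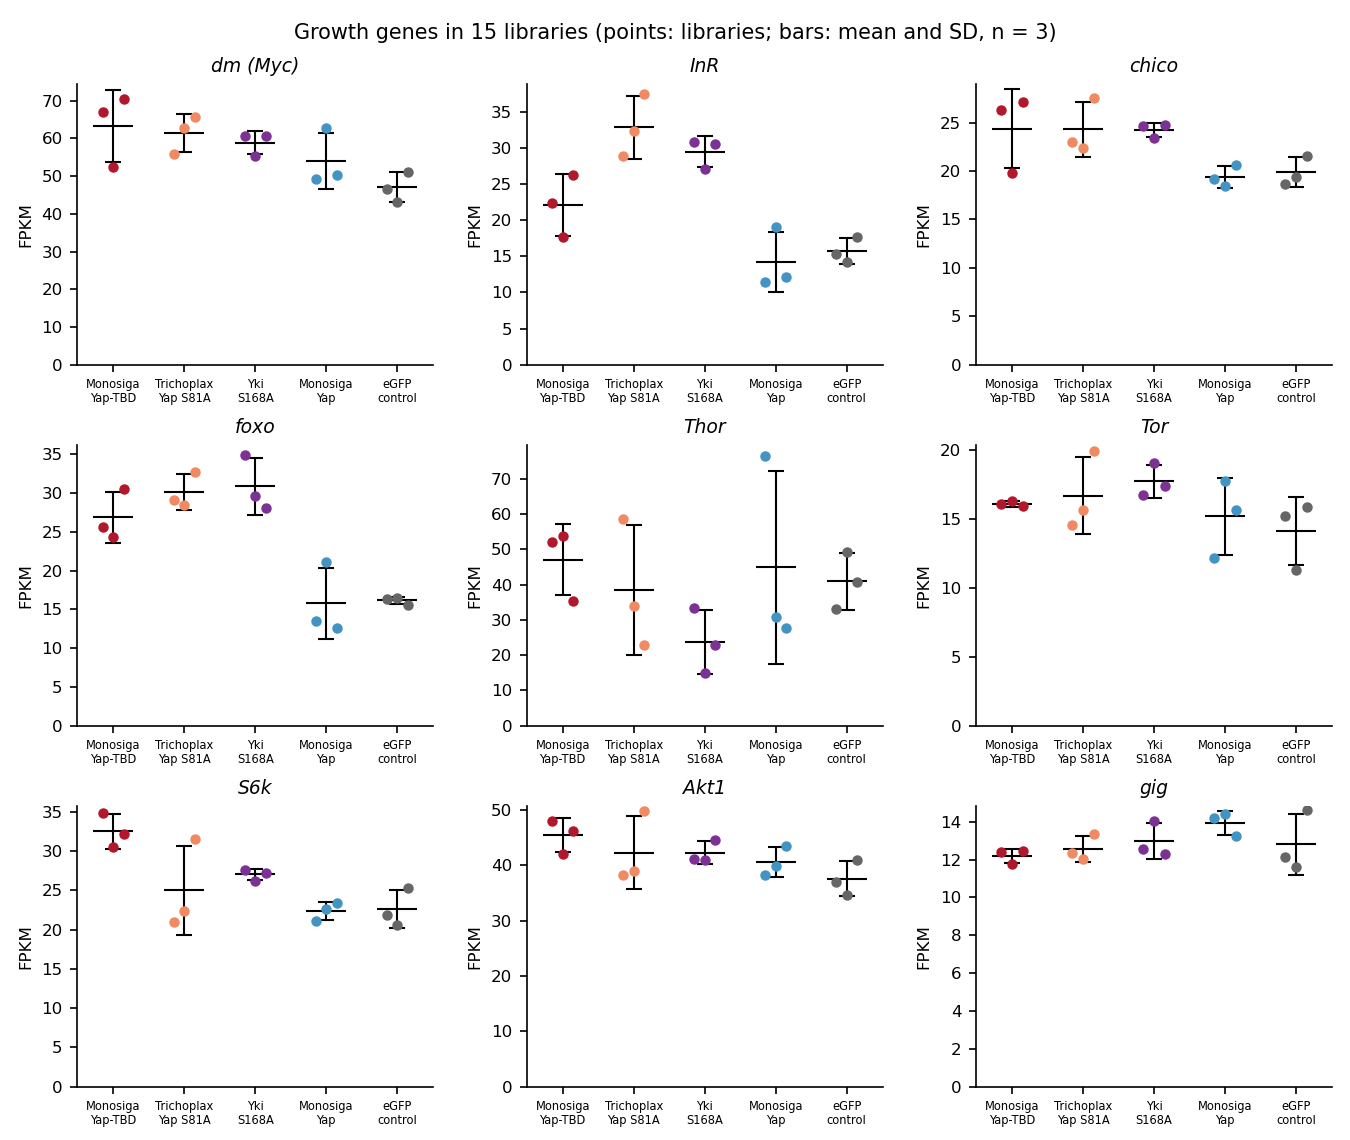
FPKM of the 9 growth genes (vertical axes, each from 0) in the 15 libraries by group; points are libraries, horizontal lines group means and bars the SD of 3 libraries. InR and foxo stand higher in the Trichoplax Yap S81A and Yki S168A libraries than in any control library, S6k is highest in Monosiga Yap-TBD, and Thor spreads widely within groups.

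The receptor gene InR separated the constructs most widely of the 9, with a ratio of 2.31 between its highest and lowest group means. InR had 22.4, 17.6 and 26.2 FPKM in Monosiga Yap-TBD libraries, 28.8, 32.2 and 37.4 FPKM in Trichoplax Yap S81A libraries and 30.8, 27.0 and 30.5 FPKM in Yki S168A libraries. It had 11.4, 19.0 and 12.2 FPKM in Monosiga Yap libraries and 15.4, 14.1 and 17.7 FPKM in control libraries. Every Trichoplax Yap S81A and Yki S168A library lay above every control library, while Monosiga Yap-TBD replicate 2 fell just below the highest control library. With Trichoplax Yap S81A, mean InR was 2.08-fold that of the control, a log2 fold change of 1.01 (SE 0.19, limma adjusted p = 0.00247). With Yki S168A it was 1.87-fold, a log2 fold change of 0.87 (SE 0.19, limma adjusted p = 0.00771). Both rises passed under all 21 alternative settings. Without Trichoplax Yap S81A replicate 1, the library with fat body genes, the first was 1.10 on the log2 scale (limma adjusted p = 0.00505).

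With Monosiga Yap-TBD, InR was 1.40-fold the control on average and did not pass (log2 0.45, 95% interval 0.05 to 0.85, limma adjusted p = 0.0982), and it passed without Monosiga Yap replicate 2 (limma adjusted p = 0.0394). The authors' deposited table gave this difference a p of 8.68e-05 and an adjusted value of 0.00107. InR in Monosiga Yap differed from the control by a log2 fold change of -0.17 (95% interval -0.57 to 0.23). In the order of mean levels, from Trichoplax Yap S81A through Yki S168A, Monosiga Yap-TBD and the control to Monosiga Yap, no neighbouring groups passed the test of their difference.

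In the same bulk tissue, markers of differentiated photoreceptors moved with the 3 constructs that raised foxo. Of 11 tested genes of that list, 9 fell with Monosiga Yap-TBD, 8 fell and 1 rose with Trichoplax Yap S81A, 7 fell and 1 rose with Yki S168A, and 0 passed with Monosiga Yap. The shares of all tested genes that fell with the first 3 constructs were 12%, 6.09% and 6.52%. The list summed to 59.7 to 66.9 FPKM in Monosiga Yap-TBD libraries, 106 to 144 in Trichoplax Yap S81A, 132 to 175 in Yki S168A, 314 to 404 in Monosiga Yap and 311 to 424 FPKM in control libraries. None of the defining markers elav, chp and sev was at 0. The part of these markers' cells in the changes of the 9 genes was not tested, and fewer cells of a type and less RNA per cell cannot be told apart.

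foxo, the transcription factor that insulin signalling restrains, rose with 3 constructs. Its libraries had 25.7, 24.3 and 30.6 FPKM with Monosiga Yap-TBD, 29.1, 28.4 and 32.7 FPKM with Trichoplax Yap S81A and 35.0, 29.6 and 28.1 FPKM with Yki S168A. They had 13.6, 21.1 and 12.7 FPKM with Monosiga Yap, and 16.4, 16.4 and 15.6 FPKM in the control. All 9 libraries of the first 3 constructs were above all 6 of Monosiga Yap and the control. The log2 fold change over the control was 0.69 with Monosiga Yap-TBD (1.66-fold, SE 0.17, limma adjusted p = 0.00695). With Trichoplax Yap S81A it was 0.86 (1.86-fold, limma adjusted p = 0.00332), and with Yki S168A 0.89 (1.91-fold, limma adjusted p = 0.00305). These calls held under all 21 alternatives, and without Trichoplax Yap S81A replicate 1 the second was 0.88 (limma adjusted p = 0.0109). Of the neighbours in the order of foxo means, Monosiga Yap-TBD and the control were the pair that passed; the means of Yki S168A, Trichoplax Yap S81A and Monosiga Yap-TBD, at 30.9, 30.1 and 26.9 FPKM, did not differ past the test.

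The Myc gene dm had smaller differences. Monosiga Yap-TBD libraries had 66.9, 52.5 and 70.5 FPKM, Trichoplax Yap S81A libraries 55.9, 62.8 and 65.7 FPKM, and Yki S168A libraries 60.7, 55.4 and 60.6 FPKM. Monosiga Yap libraries had 49.3, 62.7 and 50.2 FPKM, and control libraries 46.6, 43.2 and 51.2 FPKM. The highest control library was below every library of Monosiga Yap-TBD, Trichoplax Yap S81A and Yki S168A, and overlapped those of Monosiga Yap. Mean dm rose 1.35-fold with Monosiga Yap-TBD, a log2 fold change of 0.41 (SE 0.13, limma adjusted p = 0.033). This call was lost in 6 of 21 alternatives, which were median-of-ratios scaling, a fit of the compared groups alone and leaving out Monosiga Yap-TBD replicate 1 or 3 or control replicate 1 or 2, with limma adjusted p of 0.0109 to 0.119 over all 21. With Trichoplax Yap S81A dm was 1.31-fold the control (log2 0.38, 95% interval 0.10 to 0.66, limma adjusted p = 0.0778), and with Yki S168A 1.25-fold (log2 0.32, 95% interval 0.04 to 0.60, limma adjusted p = 0.138). In the authors' deposited table the adjusted value of dm was 0.0662 for Monosiga Yap-TBD, 0.33 for Trichoplax Yap S81A and 0.23 for Yki S168A. No neighbours in the order of dm means passed the test.

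S6k, the kinase that phosphorylates ribosomal protein S6 downstream of Tor, rose with Monosiga Yap-TBD. It had 34.9, 30.5 and 32.2 FPKM there, 21.0, 22.4 and 31.6 FPKM with Trichoplax Yap S81A, 27.6, 26.2 and 27.2 FPKM with Yki S168A, 21.1, 22.6 and 23.4 FPKM with Monosiga Yap, and 21.9, 20.6 and 25.3 FPKM in the control. The Monosiga Yap-TBD libraries were above every library of Yki S168A, Monosiga Yap and the control, and replicate 3 of Trichoplax Yap S81A reached into their range. Mean S6k was 1.44-fold the control with Monosiga Yap-TBD (log2 0.51, SE 0.14, limma adjusted p = 0.0151). Without Monosiga Yap-TBD replicate 1 or control replicate 1 or 2 the call was lost, with limma adjusted p of up to 0.0645. S6k with Yki S168A (log2 0.25, 95% interval -0.04 to 0.55) and with Trichoplax Yap S81A (log2 0.12, 95% interval -0.17 to 0.42) did not pass. A difference in S6k between Monosiga Yap-TBD and those constructs was not past the test either, with limma adjusted p of 0.14 against Trichoplax Yap S81A and 0.346 against Yki S168A.

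The remaining genes did not pass against the control in the 15 libraries. chico, the adaptor of the receptor, averaged 24.4 ± 4.04 FPKM with Monosiga Yap-TBD, 24.3 ± 2.83 with Trichoplax Yap S81A, 24.3 ± 0.723 with Yki S168A, 19.4 ± 1.13 with Monosiga Yap and 19.9 ± 1.54 FPKM in the control (SD, n = 3 each). Its log2 differences from the control were 0.27, 0.27, 0.28 and -0.03 in that order, with limma adjusted p of 0.15, 0.206, 0.199 and 1. Without Monosiga Yap-TBD replicate 2, which had 19.7 FPKM against 26.3 and 27.1 FPKM in the other Monosiga Yap-TBD libraries, chico passed for that construct (limma adjusted p = 0.0361). Akt1 averaged 45.5 ± 3.03 FPKM with Monosiga Yap-TBD, 42.3 ± 6.55 with Trichoplax Yap S81A, 42.3 ± 2.04 with Yki S168A, 40.6 ± 2.72 with Monosiga Yap and 37.6 ± 3.21 FPKM in the control. Its 95% interval for Monosiga Yap-TBD over the control was 0.02 to 0.52 on the log2 scale (limma adjusted p = 0.111).

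Tor, the kinase at the centre of nutrient signalling, averaged 16.1 ± 0.192 FPKM with Monosiga Yap-TBD, 16.7 ± 2.83 with Trichoplax Yap S81A, 17.8 ± 1.19 with Yki S168A, 15.2 ± 2.81 with Monosiga Yap and 14.2 ± 2.47 FPKM in the control. Its largest log2 difference from the control was 0.32 with Yki S168A (95% interval -0.03 to 0.67). gig, which encodes the brake Tsc2, varied least of the 9, with group means of 12.2 to 13.9 FPKM and 95% intervals against the control that stayed within -0.31 and 0.37 on the log2 scale for all 4 constructs.

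Thor, the translation repressor, was the most variable of the 9 within groups. Its libraries had 52.2, 53.7 and 35.5 FPKM with Monosiga Yap-TBD, 58.7, 33.8 and 22.8 FPKM with Trichoplax Yap S81A, 33.2, 14.997 and 23.0 FPKM with Yki S168A, 76.4, 30.7 and 27.6 FPKM with Monosiga Yap, and 33.0, 49.2 and 40.7 FPKM in the control. Every construct group overlapped the control. The coefficient of variation of Thor within a group had a median of 38.5%, above that of 96.1% of the 5209 tested genes with a mean of 10 to 100 FPKM, whose median was 13.2%. The Thor difference with the widest distance from 0, that of Yki S168A from the control, was -0.81 on the log2 scale (95% interval -1.705 to 0.08, limma adjusted p = 0.242), and the authors' deposited table gave it a p of 0.044 and an adjusted value of 0.246. With Trichoplax Yap S81A the Thor difference was -0.17, and -0.53 without replicate 1, the library with fat body genes.

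**Figure D2:**
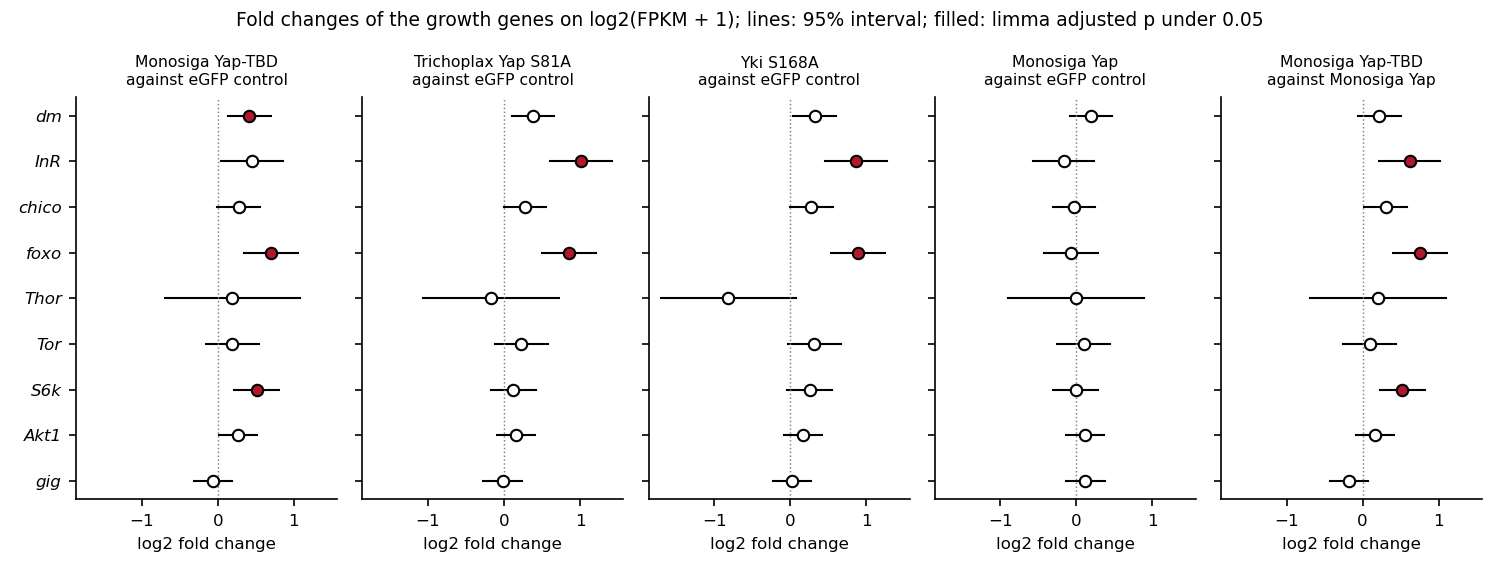
Log2 fold changes of the 9 genes (horizontal axis, on log2(FPKM + 1)) in the 4 comparisons with the control and in Monosiga Yap-TBD against Monosiga Yap; lines are 95% intervals and filled points passed the limma test. foxo is filled in every panel except that of Monosiga Yap, InR is filled at 1.01 and 0.87 in the Trichoplax Yap S81A and Yki S168A panels, and the intervals of Thor are the widest.

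The constructs Monosiga Yap-TBD and Monosiga Yap differ by the added human domain. Of the 9 genes, 3 were higher with the domain (InR, foxo and S6k) and none lower, where 26.5% of all tested genes passed and 14.3% were higher. foxo was 1.704-fold higher (log2 0.76, SE 0.17, limma adjusted p = 0.00354), with no overlap of libraries and with the call kept under all 21 alternatives. S6k was 1.46-fold higher (log2 0.52, SE 0.14, limma adjusted p = 0.0127), also with no overlap. Its limma adjusted p was 0.0559, and the call was lost, when replicate 1 of the construct with the domain was left out. InR was 1.55-fold higher (log2 0.62, SE 0.19, limma adjusted p = 0.0248), but Monosiga Yap replicate 2 overlapped the Monosiga Yap-TBD libraries, and the call was lost with median-of-ratios scaling, in a fit of the compared groups alone and without replicate 1 or 3 of either group (limma adjusted p of 0.00295 to 0.111 over 21 alternatives). dm differed by 0.22 on the log2 scale (95% interval -0.06 to 0.50, limma adjusted p = 0.246).

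Against Monosiga Yap, InR and foxo were also higher with Trichoplax Yap S81A (2 of 9 genes, where 12.7% of all tested genes passed) and with Yki S168A (2 of 9, where 11.7% passed). InR was higher by 1.18 and 1.04 on the log2 scale with these constructs (limma adjusted p = 0.000832 and 0.00264). Between Monosiga Yap-TBD and either of them, limma called 0 of the 9 genes, where 6.32% of all tested genes passed against Trichoplax Yap S81A and 7.13% against Yki S168A. An unadjusted p under 0.05 was given to 2 of the 9 against each, where 17.4% and 19.44% of all tested genes had one. InR in Monosiga Yap-TBD was below all libraries of both, by 0.56 on the log2 scale against Trichoplax Yap S81A and 0.42 against Yki S168A (limma adjusted p = 0.109 and 0.24).

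Trichoplax Yap S81A and Yki S168A were compared as forms of the protein from different animals, each labelled with an exchange of serine for alanine. None of the 9 genes passed in limma (0 of 9), where 0.51% of all tested genes passed. An unadjusted limma p under 0.05 was given to 0 of the 9, where 5.85% of all tested genes had one. The difference was 0.15 for InR (95% interval -0.26 to 0.55), -0.03 for foxo (95% interval -0.39 to 0.32) and 0.06 for dm (95% interval -0.22 to 0.34) on the log2 scale. For Thor the interval was wider, from -0.25 to 1.53.

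Of 47 further genes of the insulin and Tor pathways, all tested, 6 rose and 1 fell with Monosiga Yap-TBD, 4 rose with Trichoplax Yap S81A, 4 rose with Yki S168A and 0 passed with Monosiga Yap. Of all tested genes, 12.6%, 6.09% and 5.42% rose with the first 3 constructs. The list medians were 0.01, 0.05, -0.02 and 0.00 on the log2 scale, close to those of all tested genes. The list counts Mio (FBgn0032940), a gene that is also counted, under the name Mondo, among the partners of Myc. Over 21 alternatives the risen genes numbered 3 to 8 with Monosiga Yap-TBD, 1 to 4 with Trichoplax Yap S81A and 1 to 6 with Yki S168A. The count moved by over 1.5 times without Monosiga Yap-TBD replicate 2 for the first, without Trichoplax Yap S81A replicate 2 or 3 or any control library and with median-of-ratios scaling for the second, and for the third with median-of-ratios scaling, with no filter on low values and without any Yki S168A or control library, Monosiga Yap-TBD replicate 1 or 3, or Trichoplax Yap S81A replicate 2. Pk61C, the gene of the kinase Pdk1 that activates Akt1 and S6k, averaged 68.9 ± 11.9 FPKM with Monosiga Yap-TBD, 69.2 ± 11.3 with Trichoplax Yap S81A, 63.5 ± 8.47 with Yki S168A, 47.1 ± 10.8 with Monosiga Yap and 41.6 ± 3.45 FPKM in the control. Its rises of 0.71, 0.71 and 0.60 on the log2 scale with the first 3 constructs had limma adjusted p of 0.00899, 0.0158 and 0.0411, and the call held under all 21 alternatives for Monosiga Yap-TBD but was lost in 3 for Trichoplax Yap S81A and 11 for Yki S168A.

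The amino acid transporter gene mnd had 68.2, 68.5 and 112 FPKM with Trichoplax Yap S81A and 69.6, 63.8 and 84.7 FPKM with Yki S168A, against 26.6, 26.5 and 19.9 FPKM in the control. With Monosiga Yap-TBD it had 35.97, 43.9 and 33.4 FPKM, above the control libraries and below those of Trichoplax Yap S81A and Yki S168A. mnd rose 3.40-fold with Trichoplax Yap S81A (log2 1.699, limma adjusted p = 0.000143) and 2.99-fold with Yki S168A (log2 1.54, limma adjusted p = 0.000442) under all 21 alternatives. Monosiga Yap-TBD was lower than Trichoplax Yap S81A by 1.08 on the log2 scale in mnd (limma adjusted p = 0.00742). It was also lower than Yki S168A, by 0.93 (limma adjusted p = 0.017). The transporter gene path, known in flies to act on Tor signalling, rose 2.41-fold with Trichoplax Yap S81A and 2.34-fold with Yki S168A (limma adjusted p = 0.0388 and 0.0407), calls that were lost in 8 and 10 of 21 alternatives. Without Trichoplax Yap S81A replicate 1, the library with fat body genes, the log2 rises with that construct were 1.82 for mnd, 1.54 for path and 0.80 for Pk61C (limma adjusted p = 0.000465, 0.00523 and 0.0221). chrb, the gene of the Tor inhibitor Charybde, fell to 22.1 ± 0.796 FPKM with Monosiga Yap-TBD, against 37.1 ± 1.78 FPKM in the control (log2 -0.72, limma adjusted p = 0.000427), under all 21 alternatives.

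The genes Rala, a small GTPase, and 14-3-3zeta, an adaptor that binds phosphorylated proteins, rose 1.52-fold and 1.46-fold with Monosiga Yap-TBD (limma adjusted p = 0.00139 and 0.000808). FK506-bp2, which encodes an FK506-binding prolyl isomerase, rose 1.40-fold with it (limma adjusted p = 0.0133), with limma adjusted p of up to 0.0701 when Monosiga Yap-TBD replicate 2 or control replicate 3 was left out. Rala also rose 1.31-fold with Trichoplax Yap S81A and 1.30-fold with Yki S168A (limma adjusted p = 0.0404 and 0.0427), calls that were lost in 12 and 10 of 21 alternatives.

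Of 13 genes of insulin-like peptides, their binding proteins and other extracellular regulators, 7 passed the filter on low values; the peptide genes Ilp1, Ilp2, Ilp3, Ilp4, Ilp5 and Ilp7 did not, with means over all libraries of at most 0.124 FPKM. A single gene rose with each of 3 constructs, which was ImpL2 with Monosiga Yap-TBD and Sdr with Trichoplax Yap S81A and Yki S168A, and none passed with Monosiga Yap. The shares of all tested genes that rose were 12.6%, 6.09% and 5.42% with the first 3 constructs. No gene of the list fell in the fit of all libraries. Without Trichoplax Yap S81A replicate 1, the library with fat body genes, 1 fell with each of these 3 constructs. These counts do not name the gene. Ilp6 had 3.92, 4.47 and 3.12 FPKM in the control. Every library of Monosiga Yap-TBD, Yki S168A and Monosiga Yap was lower, at 2.76 FPKM or less. With Trichoplax Yap S81A, Ilp6 had 6.67 FPKM in replicate 1, and 1.33 and 1.76 FPKM in the others. ImpL2, a secreted protein that binds insulin-like peptides and holds them from the receptor, had 1229, 1563 and 1097 FPKM with Monosiga Yap-TBD, against 637, 541 and 454 FPKM in the control. It had 478, 714 and 744 FPKM with Trichoplax Yap S81A, 474, 672 and 669 FPKM with Yki S168A, and 662, 452 and 487 FPKM with Monosiga Yap. The Monosiga Yap-TBD libraries were above all others, and the other constructs overlapped the control. ImpL2 rose 2.38-fold with Monosiga Yap-TBD (log2 1.25, SE 0.21, limma adjusted p = 0.000616), and it was higher with Monosiga Yap-TBD than with Trichoplax Yap S81A by 1.02 (limma adjusted p = 0.00979) and than with Yki S168A by 1.10 (limma adjusted p = 0.00508) on the log2 scale.

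Sdr, listed as CG3837, encodes a secreted protein related to the outer part of the receptor that is known in flies as a decoy for insulin-like peptides. It had 43.2, 33.1 and 38.2 FPKM with Yki S168A, 23.7, 22.9 and 26.3 FPKM with Trichoplax Yap S81A and 17.5, 13.6 and 17.1 FPKM with Monosiga Yap-TBD, against 14.5, 16.9 and 16.3 FPKM in the control. Yki S168A libraries stood highest, Trichoplax Yap S81A libraries between them and the control, and Monosiga Yap-TBD libraries overlapped the control. CG3837 rose 2.40-fold with Yki S168A (log2 1.21, SE 0.13, limma adjusted p = 7.62e-05) and 1.53-fold with Trichoplax Yap S81A (log2 0.58, limma adjusted p = 0.0101, or 0.051 without control replicate 1). Monosiga Yap-TBD was lower in CG3837 than Yki S168A by 1.20 on the log2 scale (limma adjusted p = 6.27e-05) and lower than Trichoplax Yap S81A by 0.57 (limma adjusted p = 0.018).

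**Figure D3:**
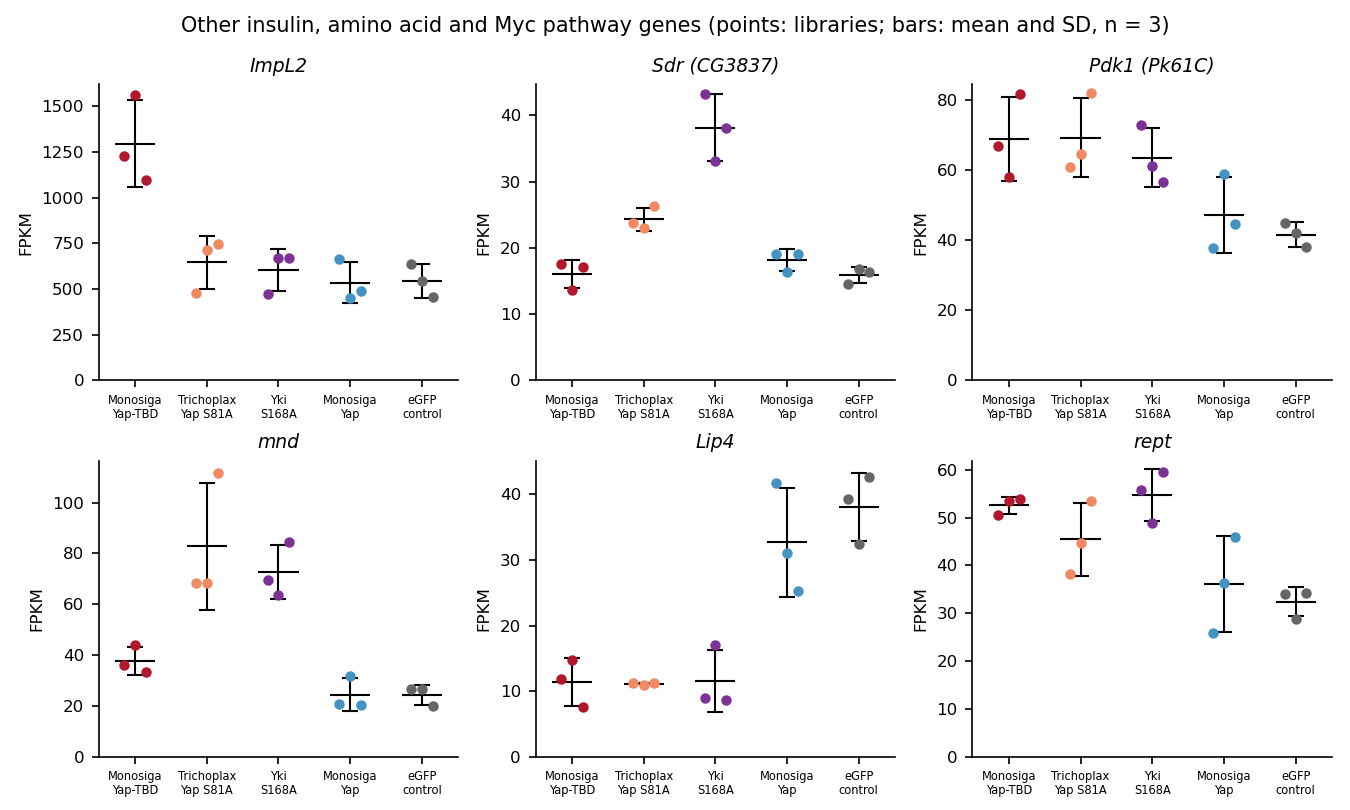
FPKM (vertical axes, from 0) of ImpL2, Sdr, Pdk1, mnd, Lip4 and rept in the 15 libraries by group; points are libraries, lines group means and bars the SD of 3 libraries. ImpL2 is high in Monosiga Yap-TBD at 1097 to 1563 FPKM, Sdr is highest in Yki S168A at 33.1 to 43.2 FPKM, and Lip4 is low in these constructs and in Trichoplax Yap S81A.

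Of 41 genes of ribosome biogenesis, a process that Myc is known to promote in flies, 26 rose with Monosiga Yap-TBD, 0 with Trichoplax Yap S81A, 4 with Yki S168A and 0 with Monosiga Yap. None fell in the fit of all libraries. In 5 of 21 alternatives 1 gene fell with Trichoplax Yap S81A, including the fit without replicate 1 of that construct. The list medians were 0.63, 0.25, 0.41 and -0.04 on the log2 scale. The counts with the first 3 constructs stand beside 12.6%, 6.09% and 5.42% of all tested genes that rose. Over 21 alternatives the count with Monosiga Yap-TBD ranged from 16 to 31, that with Trichoplax Yap S81A from 0 to 3 and that with Yki S168A from 1 to 16. The first moved by over 1.5 times without Monosiga Yap-TBD replicate 1 or 2 or control replicate 2, and the third in a fit of the compared groups alone and without Yki S168A replicate 1 or 2, Monosiga Yap replicate 1 or 3, Trichoplax Yap S81A replicate 3 or control replicate 2. The count of 0 with Trichoplax Yap S81A became 1 to 3 with median-of-ratios scaling, in a fit of the compared groups alone and without Monosiga Yap replicate 1 or 3 or Monosiga Yap-TBD replicate 3. Against Monosiga Yap, 27 of the 41 were higher with Monosiga Yap-TBD, where 14.3% of all tested genes were higher. Over the alternatives this count ranged from 19 to 31. Surf6, a nucleolar protein gene, averaged 34.0 ± 3.32 FPKM with Monosiga Yap-TBD, against 14.9 ± 1.64 FPKM in the control, and rose 2.28-fold (log2 1.14, limma adjusted p = 0.0012). CG6712 rose 2.25-fold with Monosiga Yap-TBD (limma adjusted p = 0.000777). Nlp, a nucleoplasmin gene, rose 1.505-fold with Monosiga Yap-TBD (limma adjusted p = 0.000611) and 1.37-fold with Yki S168A (limma adjusted p = 0.00869). pen, the deposited symbol of penguin, rose 1.67-fold with Monosiga Yap-TBD (limma adjusted p = 0.000464) and 1.33-fold with Yki S168A (limma adjusted p = 0.0396, lost in 10 of 21 alternatives). With Yki S168A, Nop60B, the pseudouridine synthase of box H/ACA particles, rose 1.46-fold (limma adjusted p = 0.0134), and nop5, a core protein of box C/D particles, rose 1.57-fold (limma adjusted p = 0.0187), calls lost in 2 and 3 of 21 alternatives. With Monosiga Yap-TBD these genes rose 1.51-fold and 1.67-fold (limma adjusted p = 0.00373 and 0.00389). Nlp, pen and CG6712 overlap genes of the opposite strand, and Surf6 and nop5 genes of their own strand, so their reads may not be separable. The gene CG7911, which Nlp overlaps, is itself counted in the list. The list is broad and also counts Mat1 and exba.

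Among 15 partners and regulators of Myc, 1 rose and 2 fell with Monosiga Yap-TBD, 1 rose with Yki S168A and 0 passed with Trichoplax Yap S81A or Monosiga Yap. Of all tested genes, 12.6% rose and 12% fell with Monosiga Yap-TBD, and 5.42% rose with Yki S168A. rept, the gene of the helicase Reptin that binds Myc, averaged 52.6 ± 1.78 FPKM with Monosiga Yap-TBD and 54.7 ± 5.43 FPKM with Yki S168A, against 32.4 ± 3.06 FPKM in the control. It rose 1.62-fold and 1.69-fold (limma adjusted p = 0.0111 and 0.0142), the second lost in 2 of 21 alternatives. Psi, an RNA and DNA binding protein that acts on Myc transcription in flies, and lid, a histone demethylase that binds Myc, fell by 0.34 and 0.42 on the log2 scale with Monosiga Yap-TBD (limma adjusted p = 0.0437 and 0.046), calls lost in 12 and 10 of 21 alternatives.

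Of 13 genes linked in flies to foxo or to the response to starvation, 2 fell with Monosiga Yap-TBD, 1 with Trichoplax Yap S81A and 1 with Yki S168A, 0 passed with Monosiga Yap and none rose with any construct. Of all tested genes, 12%, 6.09% and 6.52% fell with the first 3 constructs. The list is mixed in direction, since tobi and upd2 are known to be lowered when insulin signalling or food is low, and neither passed in a comparison with the control. The list medians were -0.34, -0.18, -0.21 and 0.01 on the log2 scale. Over 21 alternatives the fallen genes numbered 2 to 4 with Monosiga Yap-TBD, with 4 under median-of-ratios scaling and in a fit of the compared groups alone, and 1 to 3 with Yki S168A, with 3 in that fit and 2 without Monosiga Yap replicate 1 or 3. With Monosiga Yap-TBD, 1 gene rose in that fit and without Monosiga Yap replicate 2. Lip4, a lipase gene, had 11.8, 14.8 and 7.57 FPKM with Monosiga Yap-TBD, 11.2, 10.99 and 11.3 FPKM with Trichoplax Yap S81A and 8.96, 17.0 and 8.66 FPKM with Yki S168A. It had 41.7, 31.1 and 25.2 FPKM with Monosiga Yap and 39.2, 32.4 and 42.6 FPKM in the control, so that the 3 constructs did not overlap the control. Lip4 fell by 1.69, 1.68 and 1.69 on the log2 scale with Monosiga Yap-TBD, Trichoplax Yap S81A and Yki S168A (limma adjusted p = 0.000287, 0.000678 and 0.000858), under all 21 alternatives each. Atg8a, whose product coats autophagosomes, fell to 195 ± 23.6 FPKM with Monosiga Yap-TBD, against 285 ± 14.1 FPKM in the control (log2 -0.55, limma adjusted p = 0.0033), under all 21 alternatives.

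**Figure D4:**
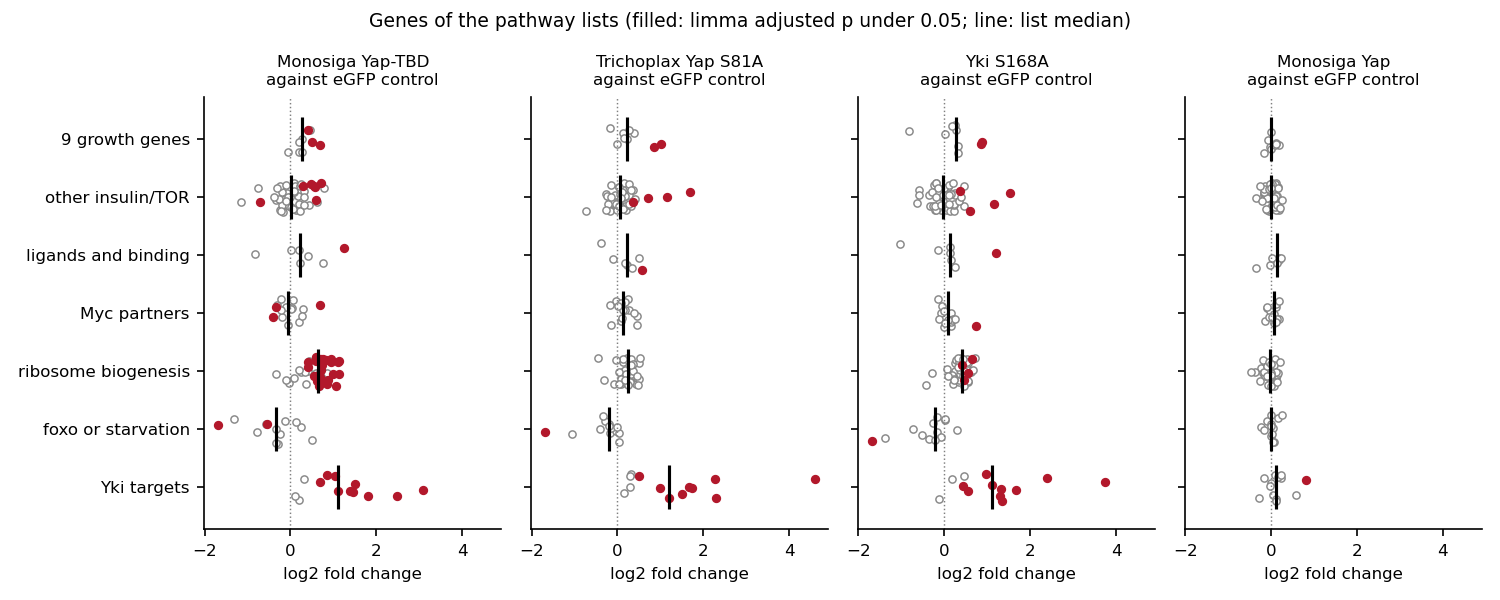
Log2 fold changes over the control (horizontal axis) of the 9 growth genes and of the tested genes of 6 pathway lists, 1 panel per construct; points are genes, filled where limma's adjusted p was under 0.05, and vertical lines are list medians. The ribosome biogenesis genes lie to the right in the Monosiga Yap-TBD panel with a median of 0.63, the other insulin and Tor genes lie around 0 in every panel, and the Yki targets lie to the right in all but the Monosiga Yap panel.

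For scale, of 13 known target genes of Yki, 10 rose with Monosiga Yap-TBD, 9 with Trichoplax Yap S81A, 10 with Yki S168A and 1 with Monosiga Yap, ex, whose call was lost in 9 of 21 alternatives. Among all tested genes 12.6%, 6.09% and 5.42% rose with the first 3 constructs, and 0.326% passed with Monosiga Yap. CycE, the cyclin gene of entry into DNA replication, averaged 36.5 ± 2.37 FPKM with Monosiga Yap-TBD, 41.9 ± 11.6 with Trichoplax Yap S81A, 32.3 ± 3.03 with Yki S168A, 12.2 ± 2.98 with Monosiga Yap and 12.3 ± 0.813 FPKM in the control. The Hippo pathway genes ex and kibra (listed as CG33967), which limit Yki, had log2 rises of 2.47 and 1.81 with Monosiga Yap-TBD, 2.28 and 1.499 with Trichoplax Yap S81A and 2.39 and 1.67 with Yki S168A (limma adjusted p of at most 0.000789 under all 21 alternatives). Each of these log2 rises was above that of any of the 9 growth genes with the same construct.

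The genes whose log2(FPKM + 1) followed the 4 risen growth genes most closely over the 15 libraries were found among all tested genes with a name other than a CG or CR number. For InR these were nkd, a feedback inhibitor of Wingless signalling (Pearson r = 0.96), kst, the heavy spectrin of the apical membrane (r = 0.95), and foxo (r = 0.94). For foxo they were Mcm7, a subunit of the replicative helicase (r = 0.96), spz3, a ligand of the Spätzle family (r = 0.95), and InR. For dm they were the transcription factor gene ovo (r = 0.89), Pk61C (r = 0.86) and Smc5 (r = 0.86), and for S6k the phosphatase gene flw, the scaffold gene Liprin-alpha and the tropomyosin gene Tm1 (r = 0.93 each). These values are descriptions over libraries that share groups, so that genes which differ between the same groups correlate.

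With the group means taken off, dm and InR still deviated together from library to library: Pearson r was 0.96 and Spearman rho 0.98 over 15 libraries, and r was 0.96 without the 2 libraries farthest from the median of dm. InR ranked first of 9212 genes in the correlation of these deviations with dm. S6k and Akt1 did likewise, with r = 0.94, rho = 0.94 and r = 0.91 without the farthest 2 libraries. With median-of-ratios scaling the r values were 0.97 and 0.95. They are the highest of 36 pairs among the 9 genes, given as a description with no p, since the points share libraries, depth and the scaling of FPKM.

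**Figure D5:**
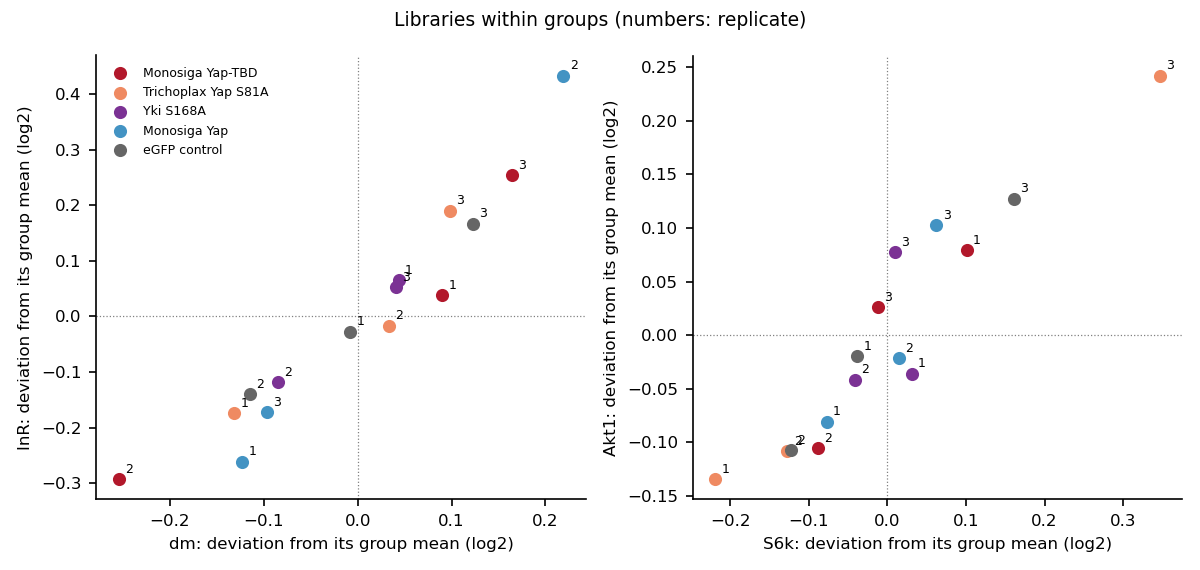
Deviation of each library from the mean of its group on log2(FPKM + 1), for InR (vertical) against dm (horizontal) on the left and Akt1 against S6k on the right; colours are groups and numbers replicates. The points lie along rising lines with r = 0.96 and r = 0.94, with Monosiga Yap replicate 2 at the upper end and Monosiga Yap-TBD replicate 2 at the lower end for dm and InR, and Trichoplax Yap S81A replicates 3 and 1 at the ends for S6k and Akt1.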

How the data were processed

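RNA of 15 libraries was extracted with RNeasy columns and made into TruSeq libraries from polyadenylated RNA, per the labels' protocols. Build dm3 and the tools TopHat 1.0.14, Cuffdiff 1.0.2, Cufflinks and CASAVA 1.7.0 come from the submitters' processing notes, which give no roles. Annotation and filters are not given in the sources used here. The authors deposited FPKM values for 14671 genes, scaled by them to transcript length and library size. A deposited table for 14672 genes holds the authors' natural log ratios of construct over control, limited to a size of 6. It also holds the authors' p-value for each gene and comparison, and deposited adjusted values that exceed 1 in places and were therefore treated as a score. The deposited mean level on the log2 scale was not used here. Library and group follow from column names that match the sample labels.

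FPKM were taken to log2(FPKM + 1), so that fold changes of low genes are understated. Genes with at least 1 FPKM in at least 3 libraries (9213) were tested in limma 3.58.1 (R 4.3.3) with trend and robust variance, 5 groups and 10 pairs of groups in one fit, two-sided, with p adjusted over all genes. Fold values are ratios of mean FPKM. The procedure was tested on simulated data. Depth was estimated from the steps of low values with a length correction of 210 bases. Of low values, 69.4% to 75.2% lay within 0.1 of a whole number of fragments, too few to recover counts, so no count test was run. The labels' replicate numbers were not taken to pair libraries across groups, and no block was used in the main fit.

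Named genes are the 9 growth genes, in each list and control comparison up to 4 called genes per direction with the smallest adjusted p, and for each risen growth gene the 3 most alike genes. The genes, lists and rules were chosen with earlier results of these data known. Of 265 list entries, 224 matched a gene in the files. Alternatives were a pseudocount of 0.1, no filter, median-of-ratios scaling, fits of compared groups alone, a replicate block and each library left out. Leaving out Monosiga Yap replicate 2 and Trichoplax Yap S81A replicate 1 together was chosen after seeing the data. Python 3.11.15 with matplotlib 3.10.9 drew the figures.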

Additional observations from a re-analysis of the deposited data

How the results depend on the processing

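The number of growth genes past the threshold depended on single libraries. Against the control, Monosiga Yap-TBD had 3, and 1 (foxo) without Monosiga Yap-TBD replicate 1, control replicate 1 or control replicate 2, with 1 to 4 over all fits that left out 1 library. Against Monosiga Yap it had 3, and 1 (foxo) without Monosiga Yap-TBD replicate 1, with 1 to 4 over those fits. In the other 4 comparisons every alternative gave a count within 1.5 times of the reported one. Of 1134 values of single growth genes, 1114 stayed on their side of the threshold, 16 lost the call and 4 gained it, and no called value changed sign; of 920 values outside the threshold in both fits, 39 had the other sign. Of 45 calls of named list genes, 30 held under every alternative and none changed sign.

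The replicate numbers of the labels correlated at -0.40 to 0.32 (median -0.04) over 30 pairs of libraries with the same number, 6 of them over 0.1, so they were not taken to pair libraries. With the replicate block the numbers of growth genes past the threshold were 3, 2, 2 and 3 for Monosiga Yap-TBD, Trichoplax Yap S81A and Yki S168A against the control and Monosiga Yap-TBD against Monosiga Yap, as without it. Over all genes, Monosiga Yap against the control had 30 calls, and 16 in a fit of these groups alone; Trichoplax Yap S81A against Yki S168A had 47 and 28. The 1 further insulin and Tor gene that fell with Monosiga Yap-TBD became up to 5 over the alternatives. The cause of these changes was not tested. Precision is limited by 3 libraries per group, and by overlapping genes whose strand is not known.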

Other observations

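Thor and Tor deviated in opposite directions within groups, with Pearson r = -0.78 and Spearman rho = -0.79 over 15 libraries, r = -0.65 without the 2 libraries farthest from the median of Thor, and r = -0.56 with median-of-ratios scaling. These are values of 1 of 36 pairs, with no test.

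In some libraries most growth genes were high or low together. Trichoplax Yap S81A replicate 3 had the highest value of its group in 8 of the 9 genes and control replicate 3 in 7, and Monosiga Yap-TBD replicate 2 had the lowest in 7. Other libraries were mixed: Monosiga Yap replicate 3 had the highest value in 3 genes and the lowest in 3, and Yki S168A replicate 3 had each in 2. Such ranks over all tested genes are not given here. Hemocyte markers, 11 genes, summed to 57.4 to 80.5 FPKM in Monosiga Yap-TBD libraries, 90.1 to 116 in Trichoplax Yap S81A, 89.3 to 99.4 in Yki S168A, 84.9 to 131 in Monosiga Yap and 136 to 164 FPKM in control libraries. The largest means were of lz (36.9 FPKM), also listed for cone and pigment cells, crq (21.0 FPKM), which overlaps ex, and ush (11.6 FPKM). Hml and He averaged 2.47 and 4.75 FPKM with Monosiga Yap-TBD, against 6.35 and 10.3 FPKM in the control. In contrast, nimC1 averaged 2.50 FPKM with Monosiga Yap-TBD and 1.42 FPKM in the control. Whether hemocyte content differed was not tested.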
